A study of Homo sapiens with 15 samples.

Results

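The genes described here are the 135 zinc finger genes named ZNF and a number that were well expressed in MDA-MB-231 cells, a human triple-negative breast cancer line. They were chosen from the deposited table by symbol and by a mean over all 15 libraries that reached 200 normalized counts. The table lists 59608 genes and 478 symbols of this form, of which 267 had a mean from 10 to 200 and 76 a mean under 10, including 23 without a read. The cells had been kept for 6 h in 2D culture with 0.1% DMSO as vehicle or with 0.5, 5, 50 or 500 nM ZJ-101, a truncated analog of the marine macrolide superstolide A. Each of the 5 groups held 3 biological replicates of this 1 line, and all 4 doses were compared with the same 3 DMSO libraries. The last genes inside the limit were ZNF226 and ZNF71, with means of 200.2 and 201.0, and the first genes outside it were ZNF764 and ZNF720, with means of 197.8 and 195.9. The mean was at least 200 in every group for 129 of the 135 genes.

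Most ZNF genes encode C2H2 zinc finger proteins, in which a pair of cysteines and a pair of histidines hold a zinc ion and fold a short segment that can read bases of DNA. In many of them a KRAB domain at the start of the protein binds TRIM28, which recruits SETDB1, HP1 proteins and the NuRD complex to repress transcription, often at transposable elements. KRAB zinc finger genes lie in clusters on chromosome 19. Messenger RNAs of this family are known for short half-lives, so that their level follows the rate of transcription within hours. Half-lives were not measured in these libraries.

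To show what the family shares, 1 finger unit of 84 bases is printed for 6 of the genes, from the coding sequence in GENCODE release 44 on GRCh38. ZNF121 and ZNF473 passed the test upwards, ZNF114, ZNF436 and ZNF160 downwards, and ZNF664 had the highest level. The capitals mark the codons of the 2 cysteines and the 2 histidines, and each sequence runs 5′ to 3′ on the coding strand.
ZNF121: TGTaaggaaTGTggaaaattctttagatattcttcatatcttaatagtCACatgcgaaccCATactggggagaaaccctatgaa
ZNF473: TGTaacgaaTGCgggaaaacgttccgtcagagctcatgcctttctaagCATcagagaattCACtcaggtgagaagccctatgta
ZNF114: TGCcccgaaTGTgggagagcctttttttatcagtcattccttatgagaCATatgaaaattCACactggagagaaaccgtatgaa
ZNF436: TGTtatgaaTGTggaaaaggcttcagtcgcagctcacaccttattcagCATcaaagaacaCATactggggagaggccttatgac
ZNF160: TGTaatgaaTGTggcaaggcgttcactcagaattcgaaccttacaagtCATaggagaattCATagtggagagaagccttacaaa
ZNF664: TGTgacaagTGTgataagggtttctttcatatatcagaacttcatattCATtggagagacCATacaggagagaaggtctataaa
The units lie at chr19:9566594-9566677 (minus strand, exon 4), chr19:50046553-50046636 (plus strand, exon 5), chr19:48286540-48286623 (plus strand, exon 6), chr1:23362797-23362880 (minus strand, exon 4), chr19:53069676-53069759 (minus strand, exon 6) and chr12:124012241-124012324 (plus strand, exon 5), in the order printed. Pairs of these units were identical at 47 to 58 of their 84 bases. The bases after the last histidine encode the linker to the next finger. Over 785 such units of the 135 genes, the first 11 bases of the linker had the consensus ACNGGNGAGAA, with N where the commonest base was in under 70% of units. On the coding strand these letters occurred at least once in 69 of the 135 coding sequences (51.1%) and in 4.79% of the 11747 coding genes tested. The consensus was drawn from the same genes, so the difference in these shares is a description.

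A KRAB box is printed for ZNF114, ZNF436 and ZNF160, the genes with a match to the KRAB pattern that passed the test at 500 nM. The 48 bases encode the part of the box searched for, and the capitals mark the codons of its fixed residues.
ZNF114: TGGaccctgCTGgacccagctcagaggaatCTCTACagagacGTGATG
ZNF436: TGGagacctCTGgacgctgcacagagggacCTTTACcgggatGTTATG
ZNF160: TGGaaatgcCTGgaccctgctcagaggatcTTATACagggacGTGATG
They lie at chr19:48282419-48282466 (plus strand, exon 5), chr1:23367073-23367120 (minus strand, exon 3) and chr19:53075088-53075135 (minus strand, exon 4). The pattern was found in 41 of the 135 genes (30.4%), against 1.97% of the coding genes tested. At least 1 C2H2 finger was found in 132 of the 135 genes, with a median of 9 fingers and up to 36 in ZNF142. The genes with no match were ZNF185, ZNF330 and ZNF703. Chromosome 19 held 49 of the 135 genes (36.3%) and 6.92% of the annotated genes tested.

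Libraries held 12415519 to 15284762 recovered reads on genes, and the 135 genes took between 0.457% and 0.510% of the normalized counts of a library. In a chi-square test of counts over genes, the ratio of the statistic to its degrees of freedom was 2.04 to 6.27 for pairs of replicates, apart from the pairs with replicate 2 of 0.5 nM, where it was 11.1 and 16.6. The ZNF genes of this library stood apart also. Of the markers of the line, VIM and CD44 were abundant, with mean normalized counts of 14566 and 10852, and ESR1 was near 0 with a mean of 0.74. SPARC, which was listed as present in this line, had a mean of 3.62, and the epithelial keratin KRT8, listed as low, had a mean of 11822. The 95% intervals of the fold changes of the ZNF genes had a median half-width of 0.17 on the log2 scale.

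ZJ-101 was followed by small changes in a minority of the ZNF genes, in both directions and mostly at the highest dose. The test was limma on log2(normalized count + 1), and the threshold was a Benjamini-Hochberg adjusted p under 0.05. At 500 nM, 19 of the 135 genes passed the threshold, of which 9 rose and 10 fell. This is a share of 14.1%, beside 17.8% of all 13561 genes tested (7.69% up and 10.1% down) and 23.0% of the 8590 that also reach a mean of 200. Changes were small, from a log2 fold change of -0.43 for ZNF114 to 0.53 for ZNF703, and the median over the 135 genes was 0.00, as over all genes tested. Only ZNF703 moved by at least 0.5 on the log2 scale, as did 7.82% of all genes tested and 344 of the 8590 with a mean of at least 200. For 125 of the 135 genes the 95% interval of the fold change at 500 nM lay within 0.5 of zero on the log2 scale.

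At 50 nM, 3 genes passed the threshold (2.22%), beside 6.00% of all genes tested, and each of them fell, as did 3.71% of all genes. At 5 nM, 0 of the 135 genes passed the limma test (2.18% of all genes tested did), 9 (6.67%) had an unadjusted p under 0.05 beside 12.9% of all genes tested, and edgeR and DESeq2 each called 1. At 0.5 nM, 0 passed with limma (1.17% of all genes tested did), 19 (14.1%) had an unadjusted p under 0.05 beside 14.7% of all genes tested, and edgeR and DESeq2 each called 0. Fold changes ran from -0.32 to 0.21 at 0.5 nM, from -0.30 to 0.22 at 5 nM and from -0.31 to 0.45 at 50 nM on the log2 scale. The largest rise at 50 nM was that of ZNF692, which did not pass the test.

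The count at 500 nM depended on single libraries. It was 7, 10 and 11 without replicates 1, 2 and 3 of DMSO, and 11, 8 and 11 without replicates 1, 2 and 3 of 500 nM. In the same fits 13.2% to 14.3% of all genes tested passed, beside 5.19% to 8.15% of the ZNF genes. Without replicate 2 of 0.5 nM the count was 28, beside 22.8% of all genes, and with only the DMSO and 500 nM libraries in the fit it was also 28, beside 24.3%. With the trend of each library on transcript length and GC content removed, 30 passed (22.2%), of which 22 rose and 8 fell, beside 23.4% of all 12719 genes in that fit (12.2% up and 11.2% down).

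**Figure D1:**
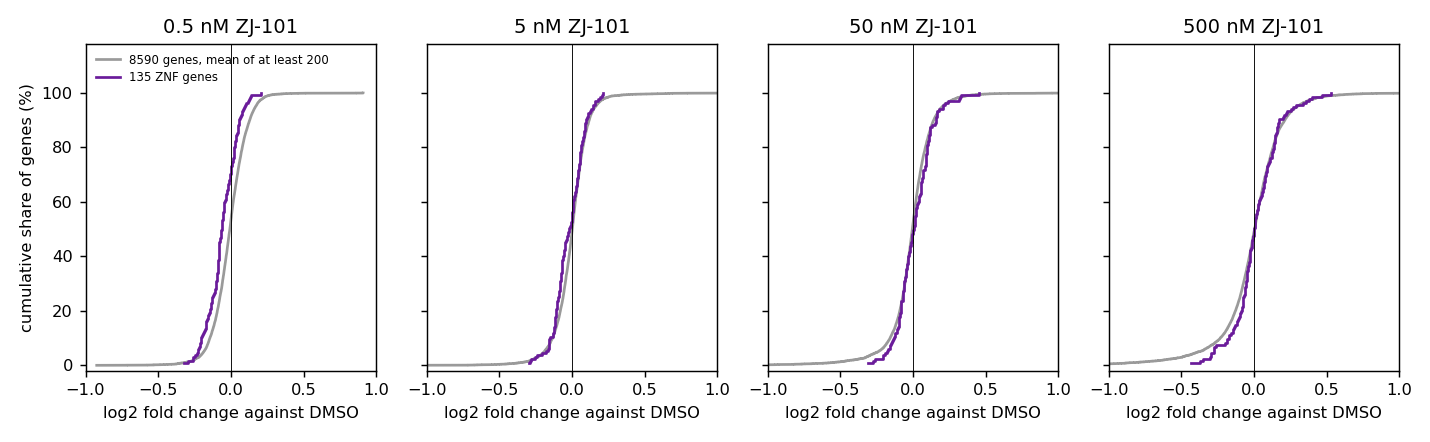
Cumulative share of genes (%) by log2 fold change against DMSO, 1 panel per dose, for the 135 ZNF genes (purple) and all 8590 genes that reach a mean of 200 (grey). The axis ends at 1 in each direction, which leaves out some grey genes. The purple curve lies left of the grey one at 0.5 nM, where its median was -0.06, and the curves cross near 0 at 500 nM.

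The median of the ZNF genes was lowest in 1 library of the lowest dose. The median of the 135 genes at 0.5 nM was -0.06 on the log2 scale, against -0.01 over all genes tested. Below DMSO were 96 of the 135 genes, and 7108 of the 13561 genes tested. With the trend on length and GC content removed the median of the 135 genes was -0.02, against 0.01 over all genes. Medians near that of the 135 genes were found in the ZNF genes with a mean from 10 to 200 (-0.06), in the other C2H2 families that reach a mean of 200 (-0.06) and in the genes of deadenylation and mRNA decay (-0.05). Within the 135 genes, the median was -0.10 in the 41 that matched the KRAB pattern, of which 33 lay below DMSO. It was -0.05 in the 94 without a match, of which 63 lay below DMSO. This difference was not tested. By library, the median distance of the ZNF genes from the DMSO mean was -0.119 in replicate 2 of 0.5 nM, -0.032 in replicate 1 and -0.026 in replicate 3. The other 12 libraries lay between -0.026 and 0.033. Without replicate 2, the median at 0.5 nM was -0.03 and 1 gene passed the test (0.741%, beside 1.14% of all genes tested). Without replicate 3, 2 genes passed (1.48%, beside 2.88%). Over all genes, the median distance in replicate 2 was -0.015, and mitochondrial genes took 1.88% of its reads, in a range of 0.889% to 2.06% over the 15 libraries. The part of these differences between libraries in the shift of the ZNF genes was not tested.

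**Figure D2:**
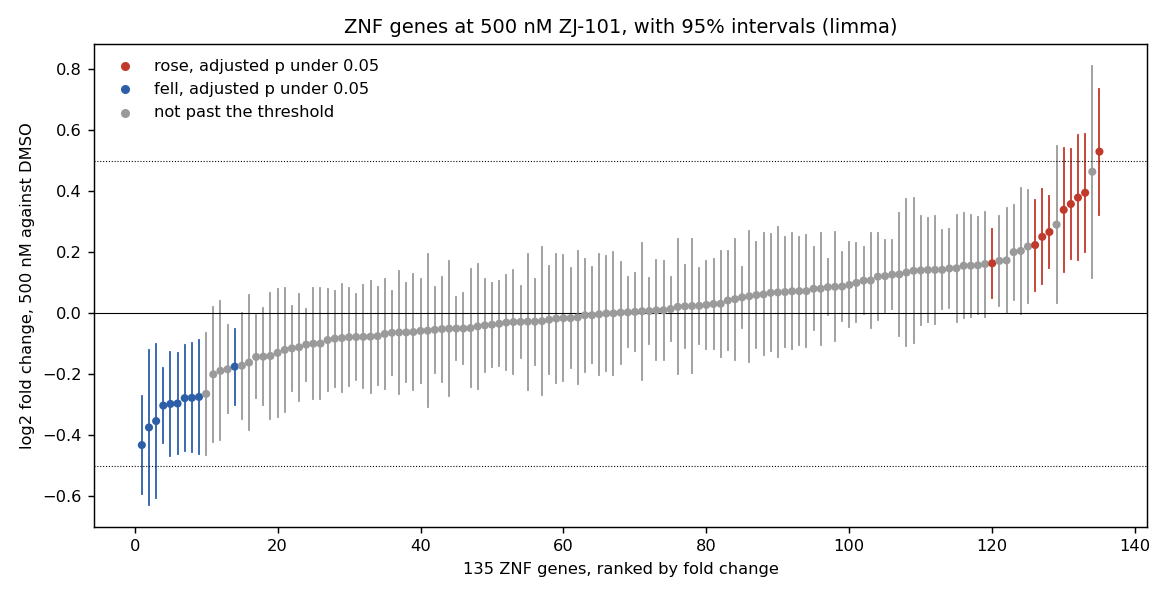
The 135 ZNF genes ranked by log2 fold change at 500 nM against DMSO, with 95% intervals from limma. Red and blue points passed the threshold, grey points did not, and the dotted lines stand at 0.5 in each direction. Most intervals cross zero, and 9 red and 10 blue points stand at the ends.

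Among the genes that rose at 500 nM, ZNF703 rose most. It encodes an atypical zinc finger corepressor of the NET family and lies at chr8:37695782-37700019, a region amplified in some luminal breast cancers. Its normalized counts were 389, 335 and 403 in DMSO, 355, 377 and 299 at 0.5 nM, 328, 417 and 359.5 at 5 nM, 471, 439.9 and 492 at 50 nM, and 567, 553 and 505 at 500 nM. All libraries of 50 and 500 nM were above all 9 libraries of DMSO and the lower doses. The log2 fold change at 500 nM was 0.53 ± 0.10 (SE, n = 3 against 3, adjusted p = 0.000747), and from 5 to 50 nM it was 0.35 (adjusted p = 0.0477). It kept its call at 500 nM under all 29 alternatives tried.

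ZNF473, also known as ZFP100, works with the U7 snRNP in making the 3′ ends of histone mRNAs. It had 295, 239.8 and 271 normalized counts in DMSO, 322, 302 and 313 at 50 nM, and 343, 332 and 355 at 500 nM, so that both higher doses were above all DMSO libraries. The log2 fold change at 500 nM was 0.36 ± 0.09 (SE, adjusted p = 0.00583). ZNF326, a subunit of the DBIRD complex that couples RNA polymerase II elongation to splicing, had 610.2, 557 and 632 in DMSO and 652, 754 and 696 at 500 nM. Its log2 fold change of 0.22 had an adjusted p of 0.0352, and from 5 to 50 nM it rose by 0.26 on the same scale (adjusted p = 0.0363). ZNF106, an RNA-binding protein of the nucleus, had 1424, 1449 and 1446 in DMSO and 2084, 1669 and 1736 at 500 nM (log2 fold change 0.34, adjusted p = 0.0194). Its 500 nM libraries were above those of DMSO and overlapped those of the lower doses, which reached 1729.

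Of the remaining genes that rose, ZNF142 encodes the longest array of fingers in the set. It had 526, 512 and 449 normalized counts in DMSO, 566, 549 and 599.9 at 50 nM, and 716, 589.6 and 652 at 500 nM. All 500 nM libraries were above all DMSO libraries, and the log2 fold change was 0.40 ± 0.09 (SE, adjusted p = 0.00492). In all, 20.9% of its exon bases lie inside PLCD4 on the opposite strand. Strandedness is not given in the sources used here, so how reads in this overlap were counted is not known. ZNF121 had 434, 378 and 459.6 in DMSO, 542, 490.1 and 561 at 50 nM, and 509.6, 629 and 519 at 500 nM (log2 fold change 0.38, adjusted p = 0.00984).

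ZNF185, which carries a LIM domain and binds actin, is a ZNF gene by name and not a C2H2 gene. Its normalized counts were 914, 974 and 857 in DMSO, 1095, 992 and 1079 at 0.5 nM, 1061, 1095 and 1028 at 5 nM, 1007, 933 and 979 at 50 nM, and 1144, 1069 and 1087 at 500 nM. The groups at 0.5, 5 and 500 nM were above all DMSO libraries, and the 50 nM group overlapped them. The log2 fold changes were 0.21, 0.22, 0.09 and 0.27 with rising dose, and only the last passed the test (adjusted p = 0.00227), with adjusted p values of 0.0924 and 0.0544 at 0.5 and 5 nM. ZNF696 had 266, 283 and 258 in DMSO and 320.0, 319 and 321 at 500 nM (log2 fold change 0.25, adjusted p = 0.0236). ZNF76, a paralog of the transcription factor ZNF143, had 839, 818 and 849 in DMSO and 912, 988 and 909.7 at 500 nM (log2 fold change 0.16, adjusted p = 0.041).

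Of the genes that fell at 500 nM, the KRAB gene ZNF114 fell most. Its normalized counts were 566, 513 and 579 in DMSO, 544, 599.7 and 542 at 0.5 nM, 602, 604 and 502 at 5 nM, 493, 438 and 449.9 at 50 nM, and 398, 417 and 412 at 500 nM. The 50 and 500 nM libraries were below all others, and those of the lower doses overlapped DMSO. The log2 fold changes were -0.26 at 50 nM (adjusted p = 0.0489) and -0.43 ± 0.08 at 500 nM (SE, adjusted p = 0.00049), and the fall from 5 to 50 nM was -0.30 (adjusted p = 0.025). The gene lies at chr19:48270081-48287608 on the plus strand.

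The other KRAB genes that fell were ZNF436 and ZNF160. ZNF436, at chr1:23359448-23369836, had 287, 263 and 272 in DMSO, 235, 207 and 236 at 50 nM, and 231, 209 and 229 at 500 nM. Both higher doses lay below all DMSO libraries, with log2 fold changes of -0.28 (adjusted p = 0.0443) and -0.30 (adjusted p = 0.0129). In ZNF160, at chr19:53066606-53103434, the order of the doses was different. It had 397, 402 and 395 in DMSO, 315, 284 and 359.7 at 0.5 nM, 335, 356 and 379 at 5 nM, 385, 378 and 311 at 50 nM, and 324, 331 and 331 at 500 nM. Every treated library was below every DMSO library, and the lowest value was in replicate 2 of 0.5 nM. The log2 fold changes were -0.32, -0.16, -0.16 and -0.27 with rising dose, of which the last passed the test (adjusted p = 0.039), and its slope on the dose did not (adjusted p = 0.308).

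ZNF395, a transcription factor known to be induced by hypoxia, had the smallest p among the falling genes without a KRAB box. It had 780.3, 749.6 and 727 in DMSO, 632, 723 and 709 at 50 nM, and 637, 596 and 597 at 500 nM, and the 500 nM libraries were below all DMSO libraries. The log2 fold change was -0.30 ± 0.06 (SE, adjusted p = 0.00116). In all, 35.0% of its exon bases are shared with FBXO16 on the same strand. ZNF219, a partner of SOX9 in cartilage, had 429, 429 and 416 in DMSO and 319, 385 and 335 at 500 nM (log2 fold change -0.30, adjusted p = 0.015). With the trend on length and GC content removed, its fold change was -0.09, and its call was lost (adjusted p = 0.449).

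ZNF771 had 283, 286 and 249 in DMSO, 224, 247 and 235 at 5 nM, 299, 298 and 296 at 50 nM, and 264, 199 and 175 at 500 nM. The 50 nM group was the highest of the 5, and the 500 nM group overlapped DMSO. It fell by 0.50 on the log2 scale from 50 to 500 nM (adjusted p = 0.0326) and had a log2 fold change of -0.37 against DMSO (adjusted p = 0.038).

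The last falls were close to the threshold. ZNF608, a paralog of ZNF609, had 242, 226 and 280.0 in DMSO and 181, 194 and 208 at 500 nM (log2 fold change -0.35, adjusted p = 0.049). ZNF277 had 276, 284 and 273 in DMSO and 211, 221 and 256 at 500 nM (log2 fold change -0.28, adjusted p = 0.0251). ZNF319 had 273, 226 and 272 in DMSO and 202, 211 and 219.9 at 500 nM (log2 fold change -0.28, adjusted p = 0.0289). In these genes the 500 nM libraries lay below all DMSO libraries, by as little as 226 against 219.9 in ZNF319. With the trend on length and GC content removed, ZNF277 and ZNF319 were past the threshold no longer (adjusted p = 0.0539 and 0.0518), nor were they by DESeq2 (adjusted p = 0.0703 and 0.067). ZNF740 had 727, 714 and 715 in DMSO, 632, 627 and 613 at 50 nM, and 658, 634 and 618 at 500 nM. Its log2 fold changes were -0.20 at 50 nM (adjusted p = 0.0481) and -0.18 at 500 nM (adjusted p = 0.0488), and 16 of 29 alternatives ended the call at 500 nM.

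**Figure D3:**
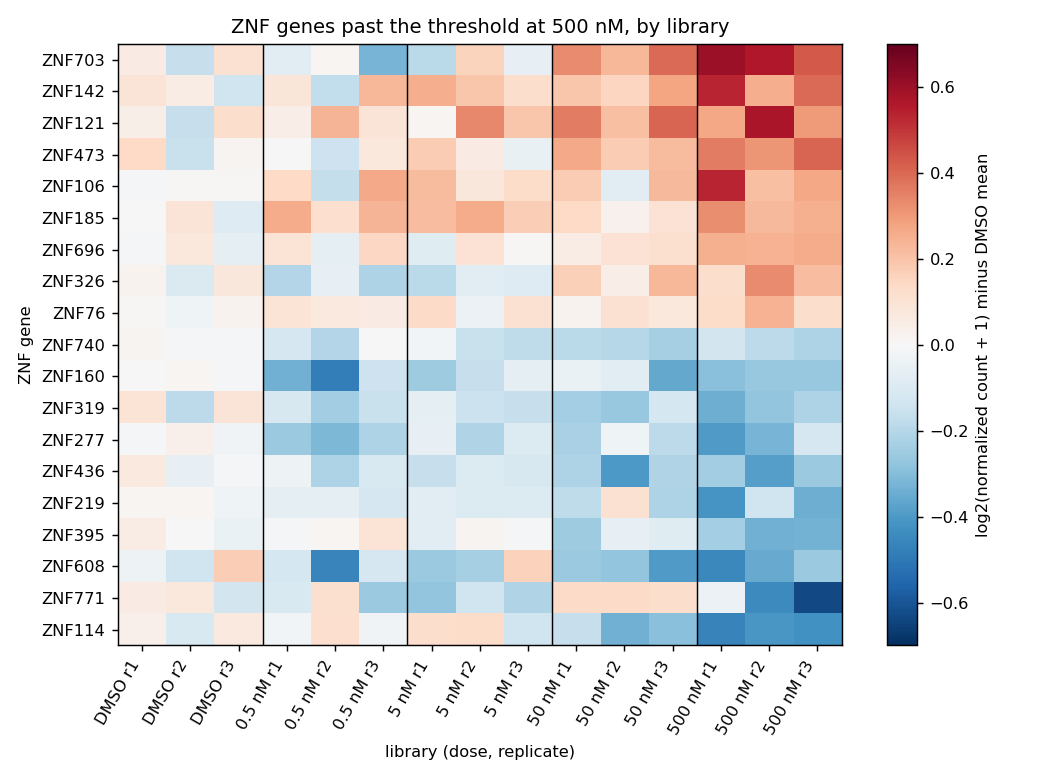
Difference of log2(normalized count + 1) from the DMSO mean in each of the 15 libraries (columns, by dose and replicate) for the 19 ZNF genes past the threshold at 500 nM (rows). Red is higher and blue is lower than DMSO. The 9 upper genes are red and the 10 lower genes blue at 500 nM, and the colours at 0.5 and 5 nM are mixed, with ZNF771 red at 50 nM.

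ZNF703, ZNF142, ZNF473, ZNF185, ZNF114 and ZNF395 kept their calls at 500 nM whichever of the 15 libraries was left out, with adjusted p values of 0.0462 at most. The other 13 genes lost theirs without at least 1 library. Without replicate 2 of DMSO the adjusted p was 0.069 for ZNF121, 0.0528 for ZNF106, 0.175 for ZNF326, 0.0525 for ZNF219, 0.0886 for ZNF277, 0.105 for ZNF160, 0.131 for ZNF771, 0.139 for ZNF76 and 0.105 for ZNF740. Without replicate 1 of DMSO it was 0.0619 for ZNF106, 0.0673 for ZNF326, 0.0713 for ZNF696, 0.0644 for ZNF436, 0.051 for ZNF219, 0.0626 for ZNF277, 0.132 for ZNF319, 0.0921 for ZNF160, 0.0918 for ZNF608, 0.121 for ZNF771, 0.0919 for ZNF76 and 0.133 for ZNF740. Without replicate 3 of DMSO it was 0.21 for ZNF608, 0.124 for ZNF319 and 0.0977 for ZNF696, and between 0.0534 and 0.102 for ZNF106, ZNF277, ZNF160, ZNF76 and ZNF740. Without 1 of the 500 nM libraries all 13 lost the call at least once, with the highest adjusted p for ZNF771 (0.209 without replicate 3), ZNF76 (0.192 without replicate 2) and ZNF326 (0.176 without replicate 2). Leaving out a library of another dose ended the calls of ZNF608 and ZNF740 without replicate 1 of 0.5 nM, replicate 2 of 5 nM or any replicate of 50 nM, of ZNF740 without replicate 3 of 5 nM, of ZNF160 without replicate 2 of 5 nM and of ZNF76 without replicate 3 of 50 nM, with adjusted p values from 0.0502 to 0.0596.

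The libraries of 500 nM and DMSO were apart, with no overlap, for 47 of the 135 genes (34.8%), 18 of the 19 among them, and for 38.5% of all genes tested. At 0.5, 5 and 50 nM this was so for 24, 36 and 30 ZNF genes (17.8%, 26.7% and 22.2%), beside 18.1%, 23.2% and 24.8% of all genes tested. At 50 nM, 18 of the 19 had a fold change of the same sign, which is in part set by the DMSO libraries that both comparisons share, and 3 passed the test. The comparisons between treated groups use no DMSO library as reference. From 5 to 50 nM, 5 genes passed the threshold (3.70%, beside 5.01% of all genes tested), and from 50 to 500 nM 1 gene did (0.741%, beside 2.28%). Besides ZNF114, ZNF326 and ZNF703, those from 5 to 50 nM were ZNF699 and ZNF316. ZNF699 had 283, 311 and 275 in DMSO, 279, 280.3 and 233 at 0.5 nM, 246, 246 and 218 at 5 nM, and 313, 291 and 299 at 50 nM. ZNF316 had 483, 487 and 497 in DMSO, 437, 434 and 402 at 0.5 nM, 369, 414 and 464 at 5 nM, and 519, 485 and 553 at 50 nM. In both genes the 5 nM libraries lay below those of DMSO and 50 nM and overlapped those of 0.5 nM. Neither differed from DMSO at 500 nM by the test (adjusted p = 0.856 and 0.704).

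By the slope on dose rank, 17 genes passed (12.6%, beside 17.6% of all genes tested), of which 10 rose and 7 fell with dose, beside 8.23% and 9.33% of all genes. Of these, 13 were also past the threshold at 500 nM. The other 4 were ZNF692, ZNF367, ZNF562 and ZNF217. Over 50% of the exon bases of ZNF562 lie inside another gene, and how reads in this overlap were counted is not known. ZNF692 had 199, 192 and 205 in DMSO, 290.1, 216 and 321 at 50 nM, and 204, 355 and 285 at 500 nM, and replicate 1 of 500 nM lay within the DMSO range. Its log2 fold change at 500 nM was 0.46 (adjusted p = 0.0611). ZNF217, a breast cancer oncogene on chromosome 20 that recruits CoREST, had 1314, 1324 and 1437 in DMSO, 1182, 1174 and 1205 at 50 nM, and 1199.6, 1207 and 1178 at 500 nM. Its libraries at 50 and 500 nM were below all DMSO libraries, with a log2 fold change of -0.18 at 500 nM (adjusted p = 0.0745) and a slope of -0.05 per step of dose (adjusted p = 0.0366).

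**Figure D4:**
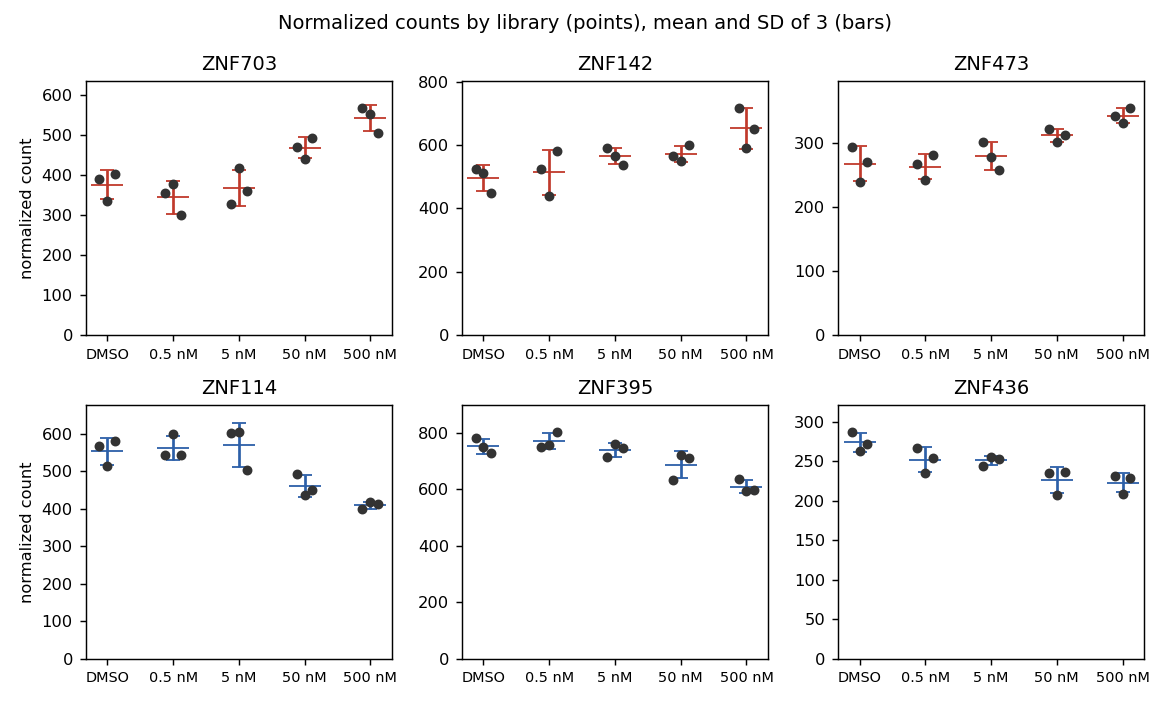
Normalized counts in each library (points) with the mean and SD of 3 replicates (bars) for 6 ZNF genes, by dose, with axes that start at 0. ZNF703, ZNF142 and ZNF473 (red) are highest and ZNF114, ZNF395 and ZNF436 (blue) lowest at 500 nM, and the groups at 0.5 and 5 nM overlap DMSO in most panels.

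The KRAB genes and the rest of the family can be set side by side. At 500 nM, 3 of the 41 genes with a KRAB box passed the threshold (7.32%), all downwards, and their median log2 fold change was -0.04. Of the 94 genes without one, 16 passed (17.0%), 9 upwards and 7 downwards, with a median of 0.02. Among the 49 genes on chromosome 19, 4 passed (8.16%), against 15 of the 86 on other chromosomes (17.4%). By number of fingers, 2 of the 3 genes with no match passed, and 7 of 30 genes with 1 to 4 fingers (23.3%). Of those with 5 to 9 fingers 5 of 40 passed (12.5%), and 5 of 62 with 10 or more (8.06%). The level fell along these last 3 classes, with a median of the mean normalized count of 611, 390.2 and 315. That median was 288.5 for the genes with a KRAB box and 457.9 for those without. It was 331.6 on chromosome 19 and 457.4 on other chromosomes. Of all genes tested 17.8% passed at 500 nM, and 23.0% of those that reach a mean of 200. These differences between parts of the family were not tested. ZNF473 has a KRAB domain that the pattern did not match, so the 41 genes are those with the pattern, not all KRAB genes. Over the 135 genes, the fold change at 500 nM and the mean level had a Spearman rho of 0.26, with 0.12 for transcript length, -0.02 for GC content and -0.03 for the number of fingers. Genes are not independent replicates, since they share the libraries.

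The 5 genes of the family with the highest level per length did not pass the test at 500 nM as reported. Per kb of transcript the highest mean level was that of ZNF664, with 714 normalized counts per kb, then ZNF146 with 558, ZNF787 with 442, ZNF706 with 439 and ZNF622 with 426, where the median of the 135 genes was 81.5. ZNF622 is a factor of 60S ribosome maturation, and ZNF146 is made almost wholly of fingers. ZNF664 had 2977, 2970.2 and 3092 normalized counts in DMSO and 3246, 3130.2 and 3216 at 500 nM. Its log2 fold change was 0.09 (adjusted p = 0.201), and those of the other 4 lay between 0.00 and 0.10 with adjusted p values from 0.31 to 0.98. With the trend on length and GC content removed, ZNF664 and ZNF787 passed the threshold upwards, with log2 fold changes of 0.11 and 0.22 (adjusted p = 0.0306 and 0.00833). Replicates of DMSO had a median coefficient of variation of 4.31% over the 135 genes.

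Genes that work with KRAB zinc fingers, and other C2H2 genes, were counted in the same fit. Of 29 tested genes of the KRAB corepressor machinery, 4 rose and 2 fell at 500 nM (20.7%). TRIM28 itself had 7899 ± 167 normalized counts in DMSO and 7833 ± 288 at 500 nM (SD, n = 3, log2 fold change -0.01, adjusted p = 0.902), and SETDB1 had a log2 fold change of -0.13 (adjusted p = 0.271). The largest rises were those of CHD3, a NuRD helicase (0.29, adjusted p = 0.00296), and UHRF1, which reads hemimethylated DNA (0.25, adjusted p = 0.000162). The falls were those of the DNA methyltransferase DNMT3A (-0.27, adjusted p = 0.0366) and of MBD2 (-0.26, adjusted p = 0.00544). Of the 31 ZBTB, ZSCAN, ZKSCAN and ZFP genes that reach a mean of 200, 3 passed, all downwards (9.68%). Of the 267 ZNF genes with a mean from 10 to 200, 4 passed, 1 upwards and 3 downwards.

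A list of short-lived mRNAs of other families was read beside the ZNF genes. Of its 38 tested genes, 3 rose and 12 fell at 50 nM (39.5%), beside 6.00% of all genes tested. At 500 nM, 5 rose and 18 fell (60.5%, beside 17.8% of all genes tested), with a median log2 fold change of -0.26. ID3, an inhibitor of basic helix-loop-helix factors, fell from 1302 ± 83.1 to 378 ± 12.3 normalized counts (SD, n = 3, log2 fold change -1.78, adjusted p = 1.68e-11), and the Notch target HES1 fell from 320 ± 17.6 to 106 ± 12.6 (-1.60, adjusted p = 3.93e-09). FOSL1 and JUN, subunits of AP-1, rose by 0.42 and 0.33 (adjusted p = 2.86e-06 and 2.63e-05). Many genes of this list respond to growth factor and stress signals. Of 35 genes of RNA polymerase II and its elongation factors, 3 passed (8.57%): POLR2A and ELL rose by 0.27 and 0.21 (adjusted p = 0.0444 and 0.0308), and ELL2 had a log2 fold change of -0.15 (adjusted p = 0.028). Of 27 genes of deadenylation and decay, 3 passed, all downwards (11.1%), with CNOT8 at -0.26 (adjusted p = 0.00297) and PAN3 at -0.24 (adjusted p = 0.0107). Against these, the 135 ZNF genes had 14.1% past the threshold and a median of 0.00. Their level was lower, with a median of the mean normalized count of 357. That median was 1072 for the short-lived mRNAs, 1009 for the RNA polymerase II list and 701 for deadenylation and decay. The differences between lists were not tested.

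**Figure D5:**
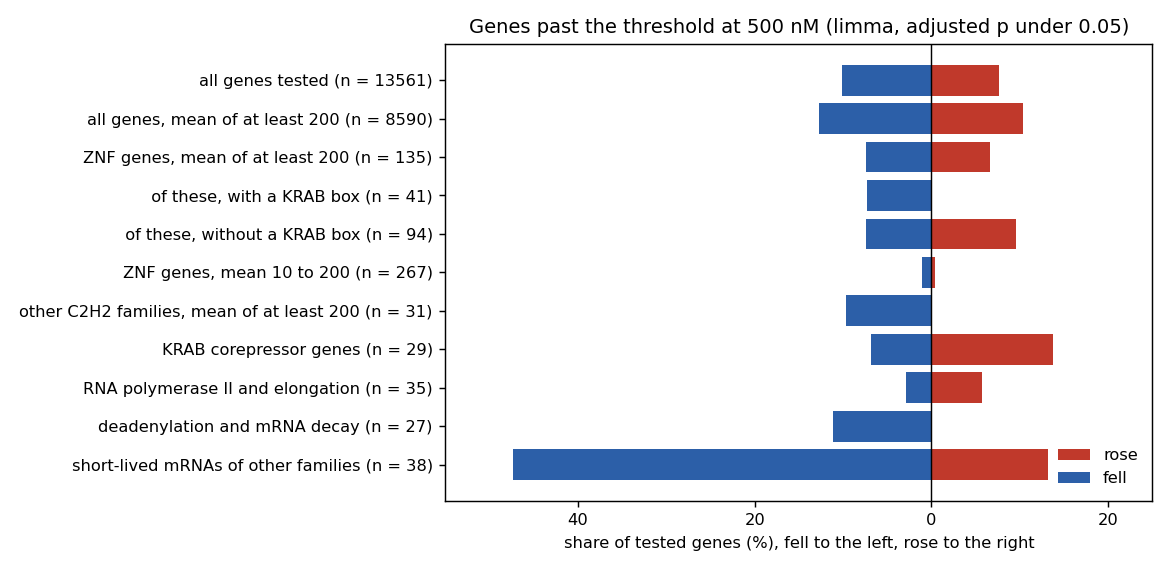
Share of tested genes (%) that fell (blue, to the left) or rose (red, to the right) at 500 nM by limma with an adjusted p under 0.05, for all genes, the ZNF genes and the companion lists, with the number of genes tested beside each name. The ZNF genes show 10 falls and 9 rises among 135, and the list of short-lived mRNAs shows 18 falls and 5 rises among 38.

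Reads can fit several genes where genes overlap or are similar. Of the 135 genes, 77 had no exon base inside another gene, 2 had over 50% (ZNF263 and ZNF562), and for no gene did another gene's transcript cover at least 50% of its transcript with at least 95% identity.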

How the data were processed

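Poly-A RNA of 15 libraries in 5 groups of 3 had been sequenced in read pairs. The authors used HISAT2 for alignment to hg38, htseq-count with GENCODE for read counts per gene, and size factors of DESeq2 to scale the libraries. The deposited signal values are these normalized counts. Tool versions, the GENCODE release and strandedness are not given in the sources used here. Whole reads were recovered for 100% of values within 0.001, and 1 line of doses was left out.

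The main test was limma 3.58.1 (R 4.3.3) with a variance trend on log2(normalized count + 1), which understates changes of low genes, for 13561 genes that reached a mean of 10, all groups in 1 fit, with Benjamini-Hochberg adjustment over these genes and a threshold of 0.05. A separate fit gave the slope on dose rank. Positions, lengths, GC content, exon overlap (bedtools 2.31.1) and translated coding sequences came from GENCODE release 44 canonical transcripts, and similar transcripts were searched with minimap2 2.31-r1302. A finger was counted as C, 2 or 4 residues, C, 12 residues, H, 3 to 5 residues, H, in these translations in place of RefSeq proteins. The KRAB box was W, 2 residues, L, 6 residues, L, Y or F, 2 residues, V, M. The fit was tested on simulated data. Members, lists, named genes and tests were chosen with earlier results of these data known. Named genes were the 8 largest rises and falls at 500 nM past the threshold without overlap with DMSO, the 3 smallest p in each direction there, up to 3 calls in each direction at 50 nM, the 5 highest levels per kb, the genes beside the limit of 200, and up to 2 calls in each direction per companion list. ZNF771, ZNF76, ZNF692, ZNF699, ZNF316, ZNF367, ZNF562, ZNF217, ZNF263, TRIM28 and SETDB1 were added after their values were seen. Alternatives were other pseudocounts, filters, scalings, thresholds, member limits and sample sets, a replicate block, removal of the trend on length and GC content, edgeR 4.0.16 and DESeq2 1.42.0 on recovered reads, and each library left out.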

Additional observations from a re-analysis of the deposited data

How the results depend on the processing

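The counts below are of ZNF genes past the threshold, and no fold change of a named gene turned direction while called. Without a filter on low genes, 0 passed at 50 nM, 3 from 5 to 50 nM and 9 by the slope. Of all 31620 genes in that fit, which takes in those with a mean under 10, 2.14%, 1.65% and 6.03% passed. At 500 nM, 13 ZNF genes passed in it (9.63%), beside 6.40% of all its genes. With a mean of at least 50, 1 passed at 5 nM and 2 from 50 to 500 nM, beside 2.89% and 3.02% of all genes. Removal of the trend on length and GC content gave 1, 1, 8 and 30 genes from 0.5 to 500 nM. It gave 8 and 2 by the steps and 30 by the slope. Of all genes in that fit, 1.95%, 3.72%, 9.69% and 23.4% passed by dose, 8.14% and 3.55% by the steps and 22.1% by the slope. The median at 500 nM was 0.019 (0.015 over all genes). Together with the replicate block the counts were 1, 1, 7 and 31 by dose, 2 from 50 to 500 nM and 29 by the slope. Of all genes 2.05%, 4.03%, 9.76%, 23.6%, 3.61% and 21.6% passed there, and the median was again 0.019. TMM scaling, edgeR and DESeq2 each gave 1 at 5 nM, beside 2.17%, 2.40% and 2.60% of all genes. From 50 to 500 nM, edgeR and DESeq2 each gave 2, beside 2.25% and 2.74%. At 500 nM, DESeq2 gave 15 (11.1%), 14 of them among the 19 of limma, beside 16.2% of all genes, and edgeR gave 20, beside 17.9%. At 50 nM, DESeq2 gave 3, of which 1 was among the 3 of limma, beside 6.15% of all genes. With the same total per library 0 passed at 50 nM, beside 5.95% of all genes, and 17 at 500 nM (12.6%), beside 17.8%. With only the libraries compared, 3 passed at 5 nM, 6 at 50 nM and 0 from 50 to 500 nM. Of all genes, 6.24%, 8.26% and 2.37% passed in these comparisons. An adjusted p under 0.1 gave 2, 2 and 7 at the 3 lower doses, 8 and 2 by the steps and 30 by the slope. A looser threshold also lets in more of all genes, and their share at 0.1 is not given here. These counts are therefore not read as a gain in ZNF genes. A limit of 0.5 on the size of the log2 fold change left 0 at 50 nM, 1 at 500 nM, 0 from 5 to 50 nM and 0 by the slope. The share of all genes that passed with this limit is not given here either. A member mean of at least 100 (239 genes) gave 1 at 0.5 nM, beside 1.17% of all genes tested. A member mean of at least 500 (46 genes) gave 8 at 500 nM, 2 and 0 by the steps and 9 by the slope. The cause of these differences was not tested.

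Leaving out 1 library gave 0 to 2 genes at 0.5 nM, 0 to 3 at 5 nM, 0 to 7 at 50 nM, 7 to 28 at 500 nM, 0 to 8 and 0 to 3 by the steps, 9 to 25 by the slope, and a median at 500 nM from -0.003 to 0.016. At 5 nM, 3 passed without replicate 2 of 0.5 nM and 2 without its replicate 3, beside 4.59% and 2.63% of all genes. At 50 nM, 7 passed without replicate 2 of 0.5 nM, beside 9.41% of all genes. The count there was 1 without replicates 2 or 3 of DMSO, 1 of 0.5 nM, 3 of 5 nM or 1 of 50 nM, beside 4.13% to 5.88%. It was 0 without replicates 1 of DMSO, 2 of 5 nM, 3 of 50 nM, or 1 or 3 of 500 nM, beside 4.39% to 5.79%. From 5 to 50 nM, 8 passed without replicate 2 of 0.5 nM, beside 8.33% of all genes. In this step 3 passed without replicate 1 of DMSO or 3 of 500 nM, and 2 without replicate 2 or 3 of 5 nM. It gave 1 without replicate 1 of 5 or 50 nM, and 0 without 50 nM replicate 3. In these fits 3.13% to 4.46% of all genes passed the step. From 50 to 500 nM, 3 and 2 passed without replicates 2 and 3 of 0.5 nM, beside 4.65% and 2.71% of all genes. This step gave 0 without any 1 replicate of 50 nM or 500 nM replicate 2 or 3, beside 1.025% to 1.84%. The slope gave 11, 11 and 9 without replicates 1, 2 and 3 of 500 nM, beside 13.8%, 13.1% and 13.5% of all genes. ZNF142, ZNF473, ZNF185, ZNF114 and ZNF395 lost their calls at 500 nM only with the fold limit.

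Replicate numbers did not pair the libraries: correlations of deviations between same-numbered libraries lay between -0.085 and 0.096 over 30 pairs, and 7 of 15 libraries correlated best with their own number. The replicate block gave 2 genes at 50 nM, 19 at 500 nM, 4 and 2 by the steps and 18 by the slope. Of all genes, 6.39%, 18.5%, 5.27%, 2.53% and 17.5% passed in these comparisons. The block ended the call of ZNF76 (adjusted p = 0.0521). Other calls at 500 nM ended with DESeq2 for ZNF76, ZNF696 and ZNF740 (adjusted p from 0.0631 to 0.0873), without a filter on low genes for ZNF76, ZNF160, ZNF326, ZNF608, ZNF740 and ZNF771 (0.0568 to 0.104), and with the same total per library for ZNF608 and ZNF740 (0.0542 and 0.0555). The median half-width of the intervals was 0.17 on the log2 scale before adjustment. The part of depth in it was not separated from the spread between replicates.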
